A study of Mus musculus with 4 samples.

Results

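A set of 7 genes of the leukemia inhibitory factor (LIF) pathway was followed in mouse embryonic stem cells (ESCs) treated to delete Arid1a, the gene of a BAF chromatin remodelling subunit: Lifr, Il6st, Jak1, Stat3, Ptpn11, Socs3 and Spp1. They were taken by symbol, and all 7 were found among 14382 genes of the table. All 4 cultures were Arid1af/f:CreERT2 ESCs, which carry floxed Arid1a and a Cre recombinase that is active only when its ligand is bound. Controls (2 libraries) received ethanol, and the other 2 received 1 µM 4-hydroxytamoxifen (4-OHT), each for 24 hours; cells were then passaged, and polyA RNA was taken 72 hours after treatment. The controls thus carried the same floxed alleles and the same Cre, and no group of cells without Cre given 4-OHT was analysed here. LIF, serum, serum replacement and a feeder layer of irradiated mouse embryonic fibroblasts were present in all cultures. Whether replicates were separate cultures is not stated, so p-values measure the spread between these libraries, which may be technical.

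LIF binds a receptor made of LIFR and GP130 (encoded by Il6st), whose associated JAK kinases phosphorylate the transcription factor STAT3. STAT3 then switches on self-renewal genes, and also Socs3, whose product shuts the receptor down, while the phosphatase SHP2 (encoded by Ptpn11) links the same receptor to the RAS and ERK branch. In ESCs grown with serum, this signal is known for holding cells in the pluripotent state. Spp1 encodes osteopontin, a secreted matrix protein that binds integrins, and its gene is known as a target of the pluripotency factor POU5F1.

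The 2 sequences shown here are the windows of the 7 genes that held either of 2 motifs, a STAT motif and a POU octamer. Both motifs were chosen with the data known, and a longer POU motif that was also searched is not reported here, so a match in a member window is no independent evidence. The windows run from 250 bases before to 50 bases after a gene start, and 9 windows covered the 7 genes (RefSeq, GRCm38.p6). The first is that of Socs3 (chr11:117969317-117969616, minus strand), with the match to the STAT motif TTCNNNGAA in capitals, 154 bases before the RefSeq start. This motif reads the same on both strands. In Gencode M21 the whole Socs3 window lies inside the gene (chr11:117966079-117970047), and 77 of its 300 bases lie in exons. The second lies at an alternative start inside Spp1 (chr5:104435942-104436241, plus strand), where the capitals mark the octamer ATGCAAAT, the motif that POU5F1 is known to bind, 210 bases before that start. They are shown because Socs3 is a known STAT3 target and Spp1 a known POU5F1 target.
Socs3: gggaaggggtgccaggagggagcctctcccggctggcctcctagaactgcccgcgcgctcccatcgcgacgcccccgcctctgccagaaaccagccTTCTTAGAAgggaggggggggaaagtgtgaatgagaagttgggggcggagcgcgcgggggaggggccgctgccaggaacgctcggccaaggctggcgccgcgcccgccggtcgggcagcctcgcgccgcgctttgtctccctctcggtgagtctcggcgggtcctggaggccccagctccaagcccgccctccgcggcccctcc
Spp1: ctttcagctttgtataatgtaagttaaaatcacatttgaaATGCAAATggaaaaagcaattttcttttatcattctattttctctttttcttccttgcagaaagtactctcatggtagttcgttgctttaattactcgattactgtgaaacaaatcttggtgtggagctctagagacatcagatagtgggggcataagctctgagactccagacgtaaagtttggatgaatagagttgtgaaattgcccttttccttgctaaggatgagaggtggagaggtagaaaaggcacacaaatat
The STAT motif was found in 8.30% of all 32851 windows, so 1 of 9 member windows is near the general share. The octamer, searched on both strands, was found in 570 of all windows (1.74%) and in 1 of the 9 member windows; it does not overlap the STAT motif. Of the 300 bases of the Spp1 window, 50 lie in exons of Spp1 in Gencode M21. A match describes these letters only, and no binding was measured.

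Reads of each library were recovered from the group means of the table as CPM (read counts scaled to library size), and A and B stand for the libraries of each group, which carry no replicate number. Effective library sizes were 6291532 to 7035534 reads, so that a single read was worth 0.142 to 0.159 CPM. Arid1a, the targeted gene, stood at 517 and 502 CPM in ethanol and at 241 and 213 CPM with 4-OHT, over the whole gene (limma adjusted p = 7.27e-06). All 12 ESC markers were measured. In limma 3 rose (Fgf4, Nanog and Tdgf1) and 2 fell (Esrrb and Sox2), 41.7% called beside 9.46% of all genes. Log2 fold changes were 0.71, 0.36 and 0.30 in the former and -0.27 and -0.22 in the latter. The summed level of the 12 markers was 5249 to 5344 CPM in ethanol and 5540 to 5624 CPM with 4-OHT. Of those, Pou5f1 lay at 1498 and 1386 CPM in ethanol and 1363 and 1514 CPM with 4-OHT, and Lin28a at 948 and 990 CPM and at 1048 and 963 CPM. The test was limma on log2(CPM + 1), with adjustment over 14376 genes and a threshold of 0.05. It called 9.46% of all genes, 5.24% higher and 4.22% lower with 4-OHT.

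Of the 7 genes, Spp1 rose with 4-OHT and the other 6 did not pass in limma, beside the 9.46% of genes called overall. With edgeR's quasi-likelihood model on reads, Spp1 was higher and Socs3 and Stat3 were lower, 3 of 7 beside 15.8% of 12961 genes (8.12% higher and 7.63% lower). DESeq2 called Spp1 alone of the 7, beside 5.07% of all genes (2.77% higher and 2.3% lower). Receptor subunits, the kinase and the phosphatase passed in neither test, and the largest of their estimated changes was 0.16 on the log2 scale, in Lifr. The 2 groups did not overlap in 6 of the 7 genes, 3 higher and 3 lower, while 52.1% of all genes had groups that did not overlap (26.4% higher and 25.7% lower). The median log2 fold change of the 7 genes was 0.02, and that of all genes was -0.0016.

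**Figure D1:**
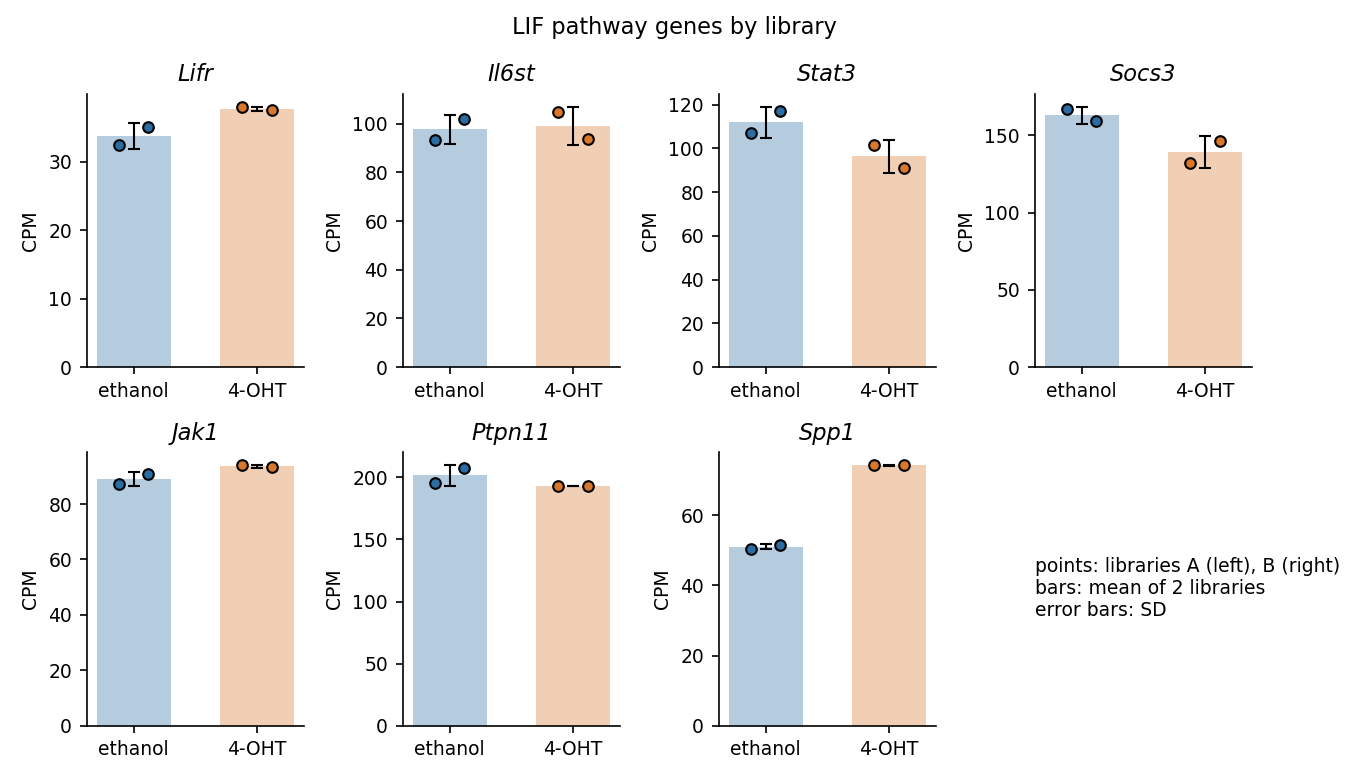
CPM of the 7 genes on a vertical axis from 0, with blue for ethanol and orange for 4-OHT; each point is a library, bars give means and whiskers the SD (n = 2). Spp1 stands at 50.5 and 51.6 CPM in ethanol and 74.3 and 74.2 CPM with 4-OHT, whereas the groups of Il6st overlap.

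Among the receptor genes, Lifr (chr15:7090614-7197489, plus strand; mm10, Gencode M21, as for the genes that follow) encodes the subunit that binds LIF. It lay at 32.4 and 35.1 CPM in ethanol and at 38.0 and 37.5 CPM with 4-OHT. Both 4-OHT libraries were above both controls, by a margin that did not pass (log2 fold change 0.16, SE 0.093, 95% interval -0.05 to 0.37, limma adjusted p = 0.348). Il6st (chr13:112464070-112510086, plus strand) encodes GP130, the signalling subunit shared by all receptors of the interleukin-6 family. It lay at 93.5 and 102 CPM in ethanol and at 105 and 93.6 CPM with 4-OHT, so that each group held a high and a low library. Its log2 fold change was 0.02 (95% interval -0.15 to 0.19, limma adjusted p = 0.908). Intervals of this width leave room for a change of up to 1.29-fold upward in Lifr and 1.14-fold in Il6st.

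Jak1 (chr4:101152367-101265282, minus strand) encodes a kinase that binds GP130. It lay at 87.1 and 90.8 CPM in ethanol and at 94.0 and 93.3 CPM with 4-OHT, higher in both treated libraries without passing (log2 fold change 0.07, 95% interval -0.07 to 0.22, limma adjusted p = 0.552). Ptpn11 (chr5:121130533-121191397, minus strand), the gene of SHP2, lay at 196 and 207 CPM in ethanol and at 193 and 193 CPM with 4-OHT. The 4-OHT libraries were just below the lower control, and the change did not pass (log2 fold change -0.06, 95% interval -0.19 to 0.07, limma adjusted p = 0.578).

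Stat3 (chr11:100885098-100939540, minus strand), the transcription factor gene of the pathway, lay at 107 and 117 CPM in ethanol and at 102 and 91.1 CPM with 4-OHT. Both treated libraries were below both controls, but the gap between the nearest libraries was smaller than the spread within either group. Its log2 fold change was -0.21 (SE 0.077, 95% interval -0.39 to -0.04), with a limma adjusted p of 0.118 and an edgeR adjusted p of 0.0460. Socs3 (chr11:117966079-117970047, minus strand), the feedback inhibitor and a known STAT3 target, lay at 167 and 159 CPM in ethanol and at 132 and 146 CPM with 4-OHT. Here too the groups did not overlap, and the mean was 1.17 times lower with 4-OHT. The log2 fold change of Socs3 was -0.23 (SE 0.068, 95% interval -0.38 to -0.08), with a limma adjusted p of 0.0647 and an edgeR adjusted p of 0.0133. Calls of both genes thus turned on the test. With genes under a mean log2 CPM of 1 left out, limma called both lower (adjusted p = 0.0153 for Socs3 and 0.0440 for Stat3; 15.9% of 12403 genes called, 8.09% higher and 7.77% lower), and DESeq2 called neither (adjusted p = 0.198 and 0.411). In edgeR, leaving out either ethanol library ended both calls, as did leaving out 4-OHT library B for Stat3 and 4-OHT library A for Socs3 (highest adjusted p 0.450 and 0.219).

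Spp1 (chr5:104435118-104441050, plus strand) lay at 50.5 and 51.6 CPM in ethanol (326 and 331 reads) and at 74.3 and 74.2 CPM with 4-OHT (523 and 467 reads). Both treated libraries were above both controls, and the gap was many times the spread within a group. With n = 2 that spread fell below the counting error, 5.54% in the library with the fewest reads, so it does not measure precision. The mean rose 1.45-fold, from 51.1 ± 0.783 to 74.3 ± 0.0779 CPM (SD, n = 2 per group; log2 fold change 0.53, SE 0.073, limma adjusted p = 0.00148). The 95% interval of the change was 1.29-fold to 1.62-fold, and its size on the log2 scale exceeded that of 90.9% of genes. Spp1 was also called by edgeR (adjusted p = 1.29e-06) and DESeq2 (adjusted p = 0.00148). In limma the call was lost without 4-OHT library A (adjusted p = 0.140) or B (adjusted p = 0.141), as was every limma call of the series, whereas edgeR kept it in all 4 such fits (highest adjusted p 0.000251). Of its 1648 exon bases, 309 (18.75%) are also exon of Gm42793, a gene model on the same strand, so part of the Spp1 reads may have been counted there or discarded. For the other members no such overlap exceeded 72 bases, those that Stat3 shares with Stat5a on the opposite strand.

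**Figure D2:**
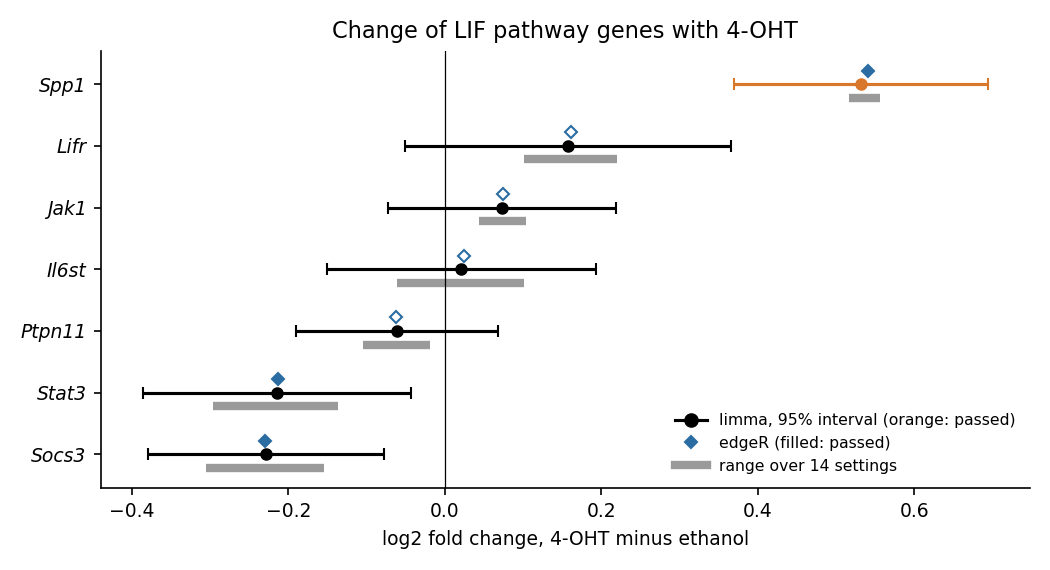
Log2 fold change (4-OHT minus ethanol, horizontal axis) of the 7 genes by limma with its 95% interval (circles and bars), by edgeR (diamonds, filled where the gene passed) and as the range over all 14 settings (grey). Spp1 is at 0.53 and passed in 12 of the 14 settings. Socs3 and Stat3 at -0.23 and -0.21 pass in edgeR but not in the main limma fit. The grey ranges are of estimates only, and of the 7 only that of Il6st includes 0.

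Fibroblasts, trophoblast cells and macrophages can also make osteopontin, so their markers are given beside the Spp1 value. The summed level of 14 measured feeder markers (of 20 listed, the other 6 not analysed here) was 303 and 291 CPM in ethanol and 318 and 301 CPM with 4-OHT, with overlapping groups. That overlap rests on Fbln1: the other 13 summed to 226 and 217 CPM in ethanol and to 268 and 253 CPM with 4-OHT, higher in both treated libraries, as was Spp1. Fbln1 was set aside for that sum after its values were seen. Of all 14, 8 had groups apart and higher with 4-OHT and 1, Fbln1, apart and lower. That is beside 26.4% and 25.7% of all genes. The 8 include scarce genes, such as Col6a3 (2 and 2 reads against 3 and 3). Groups of Col1a1 overlapped (48.0 and 46.3 CPM in ethanol, 50.7 and 45.9 CPM with 4-OHT), as did those of Col3a1 and Col5a1. Within the list of 14 Col1a2 and Thy1 rose and Fbln1 fell (21.4% called, beside 9.46% of all genes), and Acta2, with the highest level, did not pass (81.4 and 78.9 CPM against 91.3 and 83.4 CPM). Trophoblast markers (10 of 12 measured) summed to 268 and 251 CPM in ethanol and 240.2 and 240.3 CPM with 4-OHT; 1 rose (Cdx2) and 3 fell (Krt8, Krt7 and Plet1), 40.0% beside 9.46% of all genes. In edgeR 5 of 9 trophoblast markers were called, beside 15.8% of all genes. The highest of these, Tfap2c and Krt18, did not pass. Of 7 macrophage markers 2 were measured and 5, among them Ptprc and Csf1r, were not analysed here. Cd68 rose in limma, from 8.37 and 8.42 CPM to 13.6 and 12.2 CPM (adjusted p = 0.0460), but did not pass in DESeq2 (adjusted p = 0.338). Itgam, at 6.82 and 7.18 CPM and at 9.38 and 4.93 CPM, did not pass. That is 1 of 2 called in limma, beside 9.46% of all genes. Primitive endoderm markers (10 of 13 measured) summed to 310 and 304 CPM in ethanol and 383 and 366 CPM with 4-OHT. Lrp2 rose and held most of that sum, the only one called in limma (10.0% beside 9.46% of all genes). The other 9, Dab2 the highest among them, gave 39.2 and 40.4 CPM in ethanol and 49.0 and 46.6 CPM with 4-OHT. In edgeR 3 of the 9 tested rose (Lrp2, and the scarce Cubn and Sox7) and 0 fell, 33.3% beside 15.8% of all genes. Groups did not overlap in 6 of the 10, all 6 higher with 4-OHT, beside 26.4% of all genes. Some of the 6 had few reads: Sox17 had 3 and 9 in ethanol and 10 and 15 with 4-OHT. Sox7 had 4 and 8 against 14 and 20, and Hnf4a 7 and 2 against 12 and 11. No marker with a value was at 0 in all libraries. The part of these cells in the Spp1 value was not tested, and in bulk RNA fewer cells of a type and less RNA per cell cannot be told apart.

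Because CPM does not account for transcript length, levels were compared between genes as CPM per kb of merged exon (Gencode M21). Socs3 was highest, at 56.4 ± 1.95 in ethanol and 48.2 ± 3.51 with 4-OHT (CPM per kb, SD, n = 2). Spp1 came next at 31.0 ± 0.475 and 45.1 ± 0.0473, then Ptpn11 at 26.9 ± 1.12 and 25.8 ± 0.00589. With 4-OHT, Spp1 therefore came close to Socs3: the lower 4-OHT library of Socs3 stood at 45.7 CPM per kb and the higher 4-OHT library of Spp1 at 45.1. The length of Spp1 includes the 309 of 1648 exon bases shared with Gm42793, whose reads may not have been counted. Its level may therefore be too low, and its order against Socs3 with 4-OHT is not settled. Jak1 (12.3 ± 0.360 and 13.0 ± 0.0638) and Stat3 (11.7 ± 0.758 and 10.1 ± 0.783) were neighbours whose ranges over the 4 libraries overlapped. Il6st followed at 8.80 ± 0.535 and 8.94 ± 0.709. Lifr was lowest, at 3.13 ± 0.178 and 3.50 ± 0.0288, so that the transcript of the ligand-binding subunit was scarcer per length than that of GP130 in every library. With the longest annotated transcript as length, the order over both groups together was the same. In ethanol alone, Stat3 (18.5 CPM per kb) then stood above Jak1 (18.1 CPM per kb). The annotation that was used for counting is not given in the sources used here, so these lengths are approximate.

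**Figure D3:**
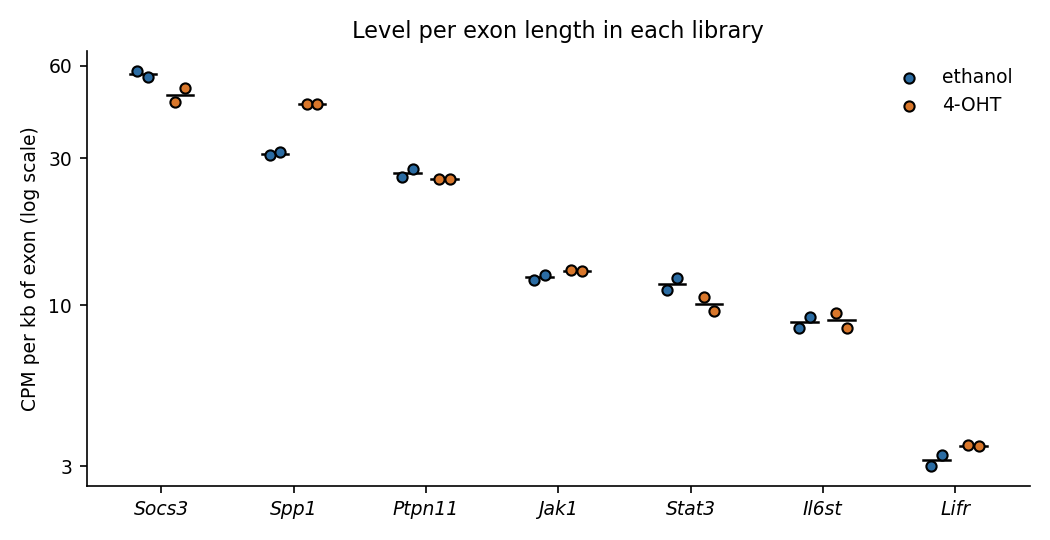
Level per exon length (CPM per kb, log axis) of each gene in the 4 libraries, with blue for ethanol, orange for 4-OHT and lines for the means. Socs3 and Spp1 are the 2 highest genes, Jak1 and Stat3 overlap, and Lifr is lowest at 3.13 and 3.50 CPM per kb.

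The rest of the pathway was read from 6 lists, of which 79 genes were measured; 5 rose, 10 fell and 64 did not pass in limma. That is 19.0% of them, beside 9.46% of all genes and 11.3% of genes with a mean of at least 30 CPM. The STAT3 response list held 9 of the 15; the other 5 lists held 6 of 55 measured genes (10.9%), near the general share. In edgeR 20 of 77 were called (25.97%), beside 16.6% of genes with that mean, and 9 of 53 (17.0%) in the other 5 lists. Their median log2 fold change was -0.01. No ligand of the interleukin-6 family passed: 0 of 5 measured in limma and 0 of 3 in edgeR, beside 9.46% and 15.8% of all genes. In limma 2 of the 5 had an unadjusted p under 0.05, beside 3441 of all 14376 genes. Lif itself, which feeders are known to make, lay at 17.7 and 19.5 CPM in ethanol and at 15.5 and 14.9 CPM with 4-OHT (limma adjusted p = 0.239). Of 4 other receptor subunits measured, Cntfr fell and 3 did not pass. Cntfr encodes the receptor subunit for ciliary neurotrophic factor, which signals through LIFR and GP130. It went from 109 and 101 CPM to 71.9 and 69.8 CPM, both treated libraries well below both controls (log2 fold change -0.56, SE 0.071, limma adjusted p = 0.000936).

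Among 9 other JAK and STAT genes, Stat4 fell, 0 rose and 8 did not pass in limma, 11.1% called beside 9.46% of all genes. Stat4, known from T cells, was scarce and went from 10.1 and 9.98 CPM to 5.54 and 5.09 CPM (log2 fold change -0.81, SE 0.17, limma adjusted p = 0.0142; DESeq2 adjusted p = 0.142). Jak2, Jak3 and Tyk2, the other kinases of the family, did not pass in limma or edgeR. Of 15 inhibitors of the pathway, 0 rose and 0 fell in limma, edgeR or DESeq2, beside 9.46%, 15.8% and 5.07% of all genes. In limma 3 of the 15 had an unadjusted p under 0.05, beside 3441 of all 14376 genes. Socs2, a relative of Socs3, pointed the other way from it, at 77.3 and 81.4 CPM in ethanol and 89.0 and 95.7 CPM with 4-OHT (limma adjusted p = 0.0935).

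Downstream of SHP2, in the RAS and PI3K branches, 2 of 22 genes rose, 2 fell and 18 did not pass in limma. That is 18.2% called, beside 9.46% of all genes. Shc1, an adaptor that brings GRB2 and SOS to receptors, rose from 157 and 155 CPM to 197 and 220 CPM (limma adjusted p = 0.00346). Mapk3, the gene of ERK1, fell from 129 and 120 CPM to 92.1 and 98.5 CPM (limma adjusted p = 0.00626). Pik3r1, the gene of a regulatory subunit of PI3K, fell from 22.9 and 28.1 CPM to 15.4 and 13.2 CPM (log2 fold change -0.79, SE 0.14, limma adjusted p = 0.00626). In each of these 3 called genes the groups did not overlap. The list thus held changes in both directions, with a median of -0.03.

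**Figure D4:**
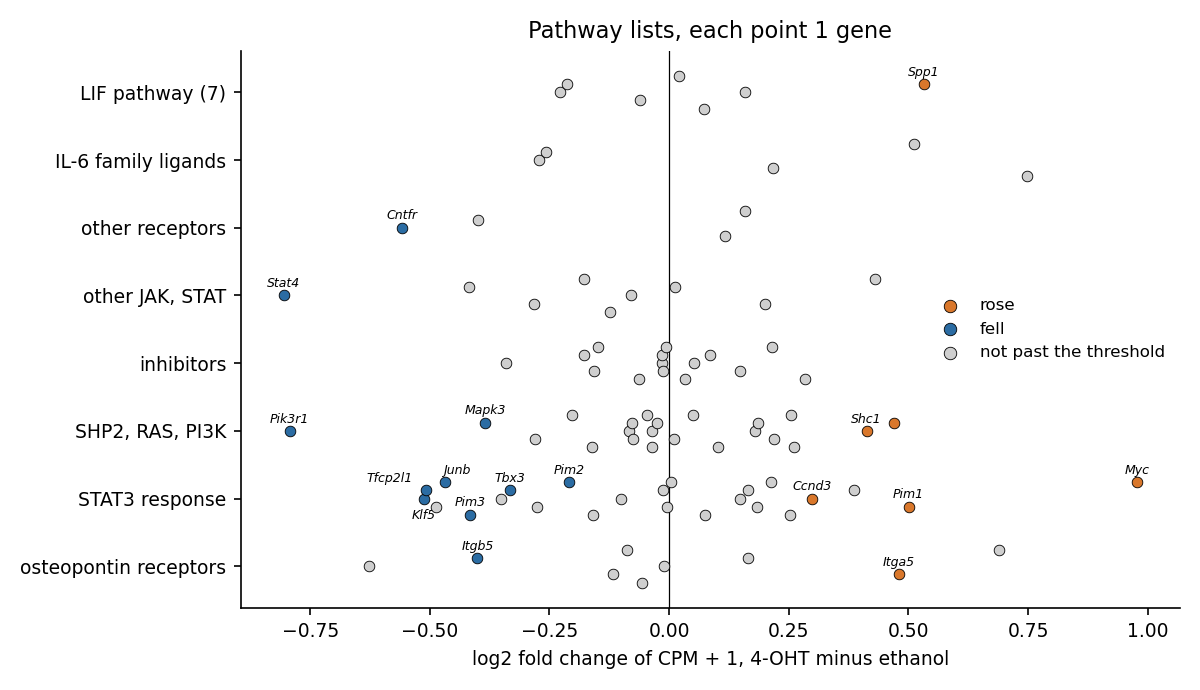
Difference in log2(CPM + 1), 4-OHT minus ethanol, for every measured gene in the 7-gene set, the 6 pathway lists and the osteopontin receptors, each point 1 gene; orange genes rose, blue genes fell and grey genes did not pass in limma, and called genes that the text names carry a label. The STAT3 response list holds 9 of the 15 called pathway genes, on both sides of 0.

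Genes known to respond to STAT3 moved in both directions: of 24 measured, 3 rose, 6 fell and 15 did not pass, a share of 37.5% beside 9.46% of all genes. This list was drawn up with earlier results of these data known, so the share is no independent evidence. Its median log2 fold change was -0.0088. Myc, a growth regulator, rose from 54.2 and 56.3 CPM to 112 and 108 CPM, the largest change of the list. Klf5 and Tfcp2l1, transcription factor genes through which STAT3 is known to sustain self-renewal, fell by 0.51 and 0.51 on the log2 scale. Klf4, another such gene, did not pass, at 52.4 and 54.6 CPM in ethanol against 59.3 and 60.9 CPM with 4-OHT (limma adjusted p = 0.223).

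The PIM kinase genes, which promote survival and are known STAT targets, split within the family. Pim1 rose from 175 and 166 CPM to 249 and 233 CPM (log2 fold change 0.50, SE 0.061, limma adjusted p = 0.000798). Pim3 fell from 150 and 141 CPM to 105 and 112 CPM (log2 fold change -0.42, SE 0.065, limma adjusted p = 0.00321). Pim2 fell from 289 ± 4.95 to 249.5 ± 0.705 CPM (SD, n = 2; log2 fold change -0.21, SE 0.053, limma adjusted p = 0.0362; DESeq2 adjusted p = 0.0840). The groups of all 3 kinases were apart in every library, and the interval of Pim1 (0.36 to 0.64) lay above those of Pim3 (-0.56 to -0.27) and Pim2 (-0.33 to -0.09). Junb, an AP-1 gene induced early by cytokines, fell from 63.1 and 55.8 CPM to 41.2 and 44.0 CPM (limma adjusted p = 0.00870). Tbx3 also fell, from 58.9 and 54.1 CPM to 46.1 and 43.2 CPM (limma adjusted p = 0.0356), but did not pass in DESeq2 (adjusted p = 0.224). Ccnd3, the gene of a D-type cyclin, rose from 174 and 155 CPM to 207 and 197 CPM (limma adjusted p = 0.0230). Pim2, Pim3, Junb, Tbx3 and Ccnd3, the ESC marker Sox2, and the list genes named here that did not pass in limma, were named after their values were seen. Sgk1 (higher, edgeR adjusted p = 0.00359) and Bcl3 (lower, edgeR adjusted p = 0.0371) passed in edgeR only, with limma adjusted p of 0.0614 and 0.0701.

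**Figure D5:**
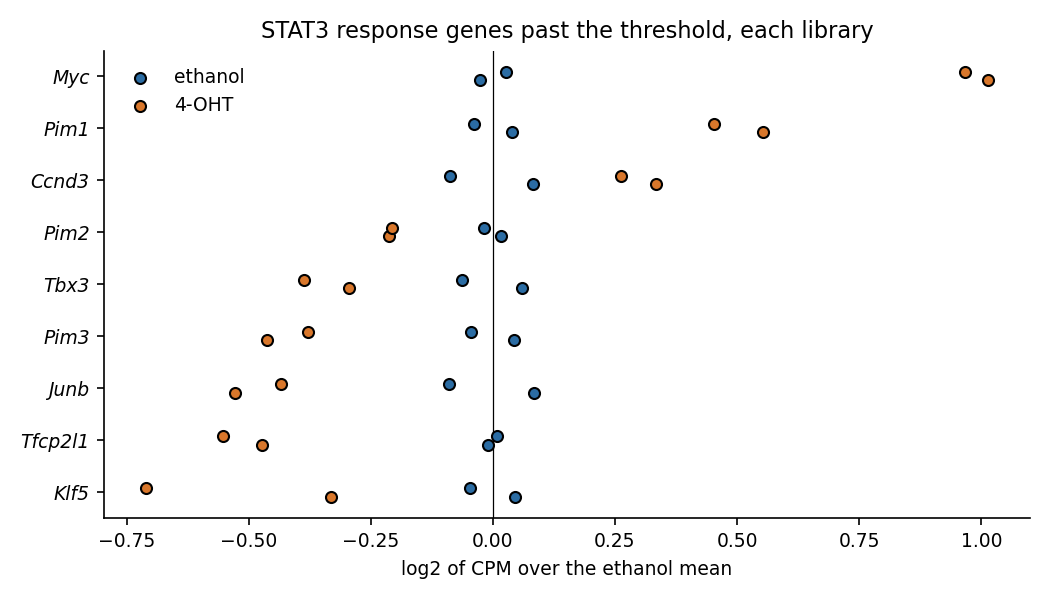
Log2 of CPM over the ethanol mean (horizontal axis) in each library for the 9 STAT3 response genes past the threshold, ethanol in blue and 4-OHT in orange. Myc, Pim1 and Ccnd3 lie to the right of their controls and the other 6 genes to the left, with no overlap in any of the 9.

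Genes with a pattern most like that of Spp1 were sought by the distance between centred log2(CPM + 1) values over the 4 libraries, among 10059 candidates with a mean of at least 3 on that scale. Among the 3 nearest were Hormad1 (18.1 and 19.0 CPM, then 27.3 and 27.5 CPM; distance 0.027) and Fads2 (63.2 and 64.6 CPM, then 90.4 and 91.7 CPM; distance 0.032). The likeness is over 4 libraries in 2 groups only.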

How the data were processed

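PolyA RNA-seq was analysed in 4 samples, 2 ethanol and 2 4-OHT. The submitters' processing notes list HISAT2, Trimmomatic, FastQC and edgeR beside the mm10 build; the read counter, strand setting included, is not given in the sources used here. Libraries were made with either of 2 TruSeq kits, per the labels' protocols, which do not assign kits to libraries, so kit and treatment cannot be told apart. Per the file headers, the authors deposited each group's mean CPM. The authors' deposited log2 fold change and adjusted p-value columns were not used, since their rows do not line up with the identifiers: in text order of Entrez number the p-value never fell in 14381 steps.

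Each group mean is a sum of 2 whole read numbers times 2 steps. Steps were fitted to the low values, and all values came out whole within 1.2 times the rounding of the last printed digit. A single pair of reads was possible for 99.7% (ethanol) and 99.95% (4-OHT) of genes, all 7 members among them. Libraries within 2-fold of each other settled the rest, except 6 genes that were left out. Recovered totals were 6188378 to 7012664 reads; intervals cover the spread between libraries. Without molecular identifiers, reads may be copies of a molecule, so counting errors cover counting only.

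The main test was limma 3.58.1 in R 4.3.3 (trend, pseudocount 1, no filter, two-sided, Benjamini-Hochberg). edgeR 4.0.16 and DESeq2 1.42.0 were run on recovered reads, and the recovery, limma and edgeR steps were tested on simulated data. An exact permutation test of 2 against 2 cannot go below p = 0.333 and was not used. Alternatives were a pseudocount of 0.1, a minimum mean log2 CPM of 1, DESeq2 size factors, thresholds of 0.01 and 0.1, and leaving out each library. Members and lists were chosen with earlier results of these data known. Named genes were all members, Arid1a, up to 4 called genes of each list by size of change, the 2 highest markers of each marker list, and the 3 nearest patterns to a called member. Symbols came from the table, or from RefSeq by Entrez number for 746 genes. Some genes that this rule names are not reported here.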

Additional observations from a re-analysis of the deposited data

How the results depend on the processing

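The number of genes called was 1360 in limma. It was 2042 in edgeR, 700 in DESeq2, 638 at a threshold of 0.01 and 2062 at 0.1, and 0 to 1767 with a library left out. The 0 was reached in limma without either 4-OHT library (2505 and 2514 genes at an unadjusted p under 0.05), where edgeR called 1591 and 1767; the cause was not tested. Of the pathway genes 15 were called, 20 in edgeR, 12 in DESeq2, 10 and 22 at thresholds of 0.01 and 0.1, and 0 to 21 with a library left out, the 0 again in limma without either 4-OHT library (24 and 21 at an unadjusted p under 0.05). Spp1 kept its direction in all 13 alternatives and its call in 11; with a library left out its log2 fold change was 0.52 to 0.56. Socs3 passed in 3 alternatives: edgeR (-0.23), the minimum level (-0.23) and edgeR without 4-OHT library B. Stat3 also passed in 3: edgeR (-0.21), the minimum level (-0.21) and edgeR without 4-OHT library A. With a library left out Socs3 ranged from -0.30 to -0.15 and Stat3 from -0.30 to -0.14. Il6st turned negative in 4 alternatives, in limma and edgeR without ethanol library A (-0.04 and -0.036) or 4-OHT library A (-0.059 and -0.061; range -0.06 to 0.10 with a library left out). Lifr, Jak1 and Ptpn11 kept their direction and did not pass in any of 13 alternatives. DESeq2 size factors moved no library by more than 0.0028 on the log2 scale. No paired analysis was possible because the columns are group means and the recovered libraries carry no replicate numbers. Fits that leave 1 library in a group assume that it varies like the others. Depth limits Lifr most among the 7: its lowest library held 209 reads, a counting error of 6.92%.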

Other observations

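Osteopontin acts on cells through integrins and CD44. Of 9 genes of these receptors, Itga5 rose, Itgb5 fell and 7 did not pass in limma, 22.2% called beside 9.46% of all genes. In edgeR 4 of 8 were called, beside 15.8% of all genes; with so few genes, nothing particular to the list is read from these shares. Itga5, which pairs with Itgb1 in the fibronectin receptor, rose from 72.2 and 74.4 CPM to 102 and 104 CPM (log2 fold change 0.48, SE 0.066, limma adjusted p = 0.00150). Itgb5, the partner of the alpha V chain, fell from 122 and 124 CPM to 88.8 and 96.6 CPM (log2 fold change -0.40, SE 0.067, limma adjusted p = 0.00465). In edgeR Itgb1 was also higher (378 and 374 CPM against 412 and 432 CPM, edgeR adjusted p = 0.0450) and Itga8 lower (10.8 and 8.42 CPM against 5.97 and 5.72 CPM, edgeR adjusted p = 0.0103). Itgav lay at 45.7 and 49.5 CPM in ethanol and at 43.1 and 44.5 CPM with 4-OHT, and Cd44 at 5.42 and 5.93 CPM and at 5.69 and 5.56 CPM; neither passed in either test. The median log2 fold change of these 9 genes was -0.06.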
